A study of Mus musculus with 6 samples.

Results

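The genes described here encode the enzymes that make and use succinate in the tricarboxylic acid (TCA) cycle of mitochondria. They were taken by name: the 4 subunits of succinate dehydrogenase (*Sdha*, *Sdhb*, *Sdhc* and *Sdhd*), 3 of its assembly factors (*Sdhaf1*, *Sdhaf2* and *Sdhaf4*) and the 3 subunits of succinyl-CoA ligase (*Suclg1*, *Suclg2* and *Sucla2*). These are 10 of the 25184 genes in the count table, and all 10 passed the filter on low counts, which left 15105 genes for the tests.

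Succinyl-CoA ligase turns succinyl-CoA into succinate and makes GTP or ATP in the same step. It is a dimer of the α subunit SUCLG1 with a β subunit that sets the nucleotide, SUCLG2 for GTP and SUCLA2 for ATP. Succinate dehydrogenase, which is complex II of the respiratory chain, then oxidizes succinate to fumarate and passes the electrons to ubiquinone. SDHA carries the flavin, SDHB carries the iron-sulfur clusters, and SDHC and SDHD anchor the complex in the inner membrane and bind ubiquinone. Complex II is the respiratory complex with no subunit encoded in the mitochondrial genome. Succinate that leaves the cell is the ligand of SUCNR1, the receptor deleted in this study, so these genes stand on the supply side of that receptor.

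Hepatocytes were isolated from 3 mice of each of the genotypes *Sucnr1* fl/fl and Hep-*Sucnr1* KO, kept overnight on collagen, and their mRNA was sequenced. Both genotypes carry floxed *Sucnr1* alleles, and the Hep-*Sucnr1* KO mice also carry a Cre recombinase driven by the albumin promoter, which is active in hepatocytes. The *Sucnr1* fl/fl mice lack Cre, so Cre itself and the loss of *Sucnr1* cannot be told apart. No compound was added. The age and sex of these 6 mice were not given in the sources used here. RNA was extracted on day 1 from *Sucnr1* fl/fl replicate 1 and Hep-*Sucnr1* KO replicate 3, and on day 2 from *Sucnr1* fl/fl replicates 2 and 3 and Hep-*Sucnr1* KO replicates 4 and 5.

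The libraries held between 30504248 and 38770694 counts. *Sucnr1* itself had 258, 118 and 103 counts in the *Sucnr1* fl/fl libraries and 84, 28 and 5 in the Hep-*Sucnr1* KO libraries. Per depth this was 6.71, 3.55 and 3.396 CPM against 2.66, 0.827 and 0.152 CPM (counts scaled by library depth with TMM factors), and the source of the remaining counts was not tested. Hepatocyte marker genes summed to between 61570 and 95435 CPM. The 8 Kupffer cell markers summed to between 28.5 and 104 CPM in *Sucnr1* fl/fl and between 5.92 and 89.0 CPM in Hep-*Sucnr1* KO libraries. The sinusoidal endothelial markers summed to between 28.6 and 66.4 CPM and the stellate cell markers to between 4.78 and 24.8 CPM over all 6 libraries, with *Des* at 0 counts in 3 of them. Cholangiocyte markers summed to between 350.2 and 650.5 CPM, mostly from *Spp1* and *Sox9*. The part of these cells in the values below was not tested. With bulk RNA, a change in the number of cells of a type and a change in RNA per cell cannot be told apart.

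The promoter stretches of 3 of the genes are shown because they hold the same short sequence, which the factor NRF1 is known to bind: GCGC, any base and TGCGC, or on the other strand GCGCA, any base and GCGC. NRF1 is a transcription factor of many nuclear genes of the respiratory chain. The sequences are those of RefSeq on GRCm38.p6, each read 5′ to 3′ on the strand of the gene, and capitals mark the matches. The *Sdha* stretch is chr13:74350241-74350350 on the minus strand, which ends at the base before the RefSeq transcription start. The *Sdhd* stretch is chr9:50603900-50603949 on the minus strand, from 100 to 51 bases before the start. The *Sucla2* stretch is chr14:73552726-73552785 on the plus strand, which ends at the base before the RefSeq start. The RefSeq starts differ from the gene starts of GENCODE printed further on. By those, the end of the *Sdha* stretch with its last match, and the whole *Sucla2* stretch, lie inside the gene.
Sdha: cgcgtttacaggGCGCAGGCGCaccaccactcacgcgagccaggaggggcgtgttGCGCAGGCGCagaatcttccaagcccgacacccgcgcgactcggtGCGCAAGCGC
Sdhd: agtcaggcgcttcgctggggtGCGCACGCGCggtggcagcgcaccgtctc
Sucla2: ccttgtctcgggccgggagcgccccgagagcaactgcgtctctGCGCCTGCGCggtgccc

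A promoter window, from 250 bases before to 50 bases after the start, was found in RefSeq for 9 of the 10 genes, all but *Sdhc*. Searched on both strands, the NRF1 letters occurred in 4 of these 9 windows, against 4.59% of all 32817 promoters and 10.9% of those with at least 60% G and C. *Sdha* held 3 matches, which began 98, 55 and 10 bases before the start. *Sdhd* held 1 match at 79 bases before the start, *Sucla2* 1 at 17 bases before it, and *Sdhaf4* 1 that began 8 bases after it. The letters CCGGAAG, which ETS factors are known to bind, occurred in 4 of 9 windows (*Sdhb*, *Sdhaf1*, *Sdhd* and *Sdhaf2*), against 8.86% of all promoters and 16.6% of those rich in G and C. The letters GGGCGG, known to be bound by SP factors, occurred in 7 of 9, against 35.6% of all promoters and 80.6% of those rich in G and C. The letters TATAAA occurred in 0 of 9 windows, against 13.6% of all promoters and 3.2% of those rich in G and C. No match of one motif overlapped a match of another. The windows of the 9 genes were 51.0 to 76.7% G and C, with a median of 52.7% over all promoters. These are matches of letters, and binding was not measured.

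The genes lie apart in the genome, with *Sdhc* and *Sdhaf4* on one chromosome and *Suclg1* and *Suclg2* on another, in each pair far from each other. In GRCm38 coordinates *Sdha* (ENSMUSG00000021577) is at 13:74322254-74350280 on the minus strand and *Sdhb* (ENSMUSG00000009863) at 4:140961203-140979193 on the plus strand. *Sdhc* (ENSMUSG00000058076) is at 1:171127165-171150603 and *Sdhd* (ENSMUSG00000000171) at 9:50596357-50603812, both on the minus strand. *Suclg1* (ENSMUSG00000052738) is at 6:73248382-73276911 on the plus strand, *Suclg2* (ENSMUSG00000061838) at 6:95473009-95718800 on the minus strand and *Sucla2* (ENSMUSG00000022110) at 14:73525319-73596142 on the plus strand. The assembly factor genes, all on the minus strand, are *Sdhaf1* (ENSMUSG00000074211) at 7:30321406-30323895, *Sdhaf2* (ENSMUSG00000024668) at 19:10500534-10526142 and *Sdhaf4* (ENSMUSG00000026154) at 1:23995939-24005656. *Suclg2* and *Sdhaf1* share long stretches of sequence with another gene of the annotation. For *Suclg2*, 16.0% of its 50-base words also occur in the processed pseudogene *Gm15163*, which had 488 counts over the 6 libraries against 31088 for *Suclg2*. The single exon of *Sdhaf1* overlaps *E130208F15Rik* on the opposite strand over 1733 exonic bases, but that gene had only 9 counts against 593 for *Sdhaf1*, and counting was by strand.

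To compare genes with each other, CPM were divided by the length of the longest transcript, and the resulting levels fell into 3 tiers. *Sdha* was the highest, with 107 ± 8.91 CPM per kb (SD over 6 libraries), followed by *Sdhb* with 89.1 ± 8.21, *Sdhd* with 83.7 ± 6.80 and *Suclg1* with 72.7 ± 6.41 CPM per kb. The β subunits *Suclg2*, with 46.0 ± 4.36, and *Sucla2*, with 36.04 ± 2.62 CPM per kb, and the membrane anchor *Sdhc*, with 29.8 ± 2.91, formed the middle. The assembly factors were far below the enzyme subunits. *Sdhaf4*, which assists the flavin-bearing subunit, had 8.39 ± 0.781 CPM per kb, *Sdhaf2*, which attaches the flavin to SDHA, had 4.13 ± 0.247, and *Sdhaf1*, which serves the iron-sulfur subunit SDHB, had 1.19 ± 0.158.

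Within a library, each gene exceeded the next in this order in 6 of 6 libraries. The ranges over libraries were apart only between *Suclg1* and *Suclg2*, *Sdhc* and *Sdhaf4*, *Sdhaf4* and *Sdhaf2*, and *Sdhaf2* and *Sdhaf1*. For the other neighbours the ranges overlapped, with mean ratios within a library from 1.06 for *Sdhb* to *Sdhd* (lowest 1.02) to 1.28 for *Suclg2* to *Sucla2* (lowest 1.15). The order depended on the gene length. Before division by length, *Sdhc*, with a mean of 94.5 CPM, was near *Sdhb* with 101.8 and *Sdhd* with 103.1 CPM. Likewise *Sdhaf2*, with 16.2 CPM, was above *Sdhaf4* with 5.73 CPM. With the union of all annotated exons, a length chosen after seeing the data, *Sdhd* came first with 83.7 CPM per kb, then *Sdha* with 75.3, followed by *Sdhb* with 45.5, and *Suclg1* moved from the fourth to the sixth place with 23.9 CPM per kb. The assembly factors kept the last places with either length.

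**Figure D1:**
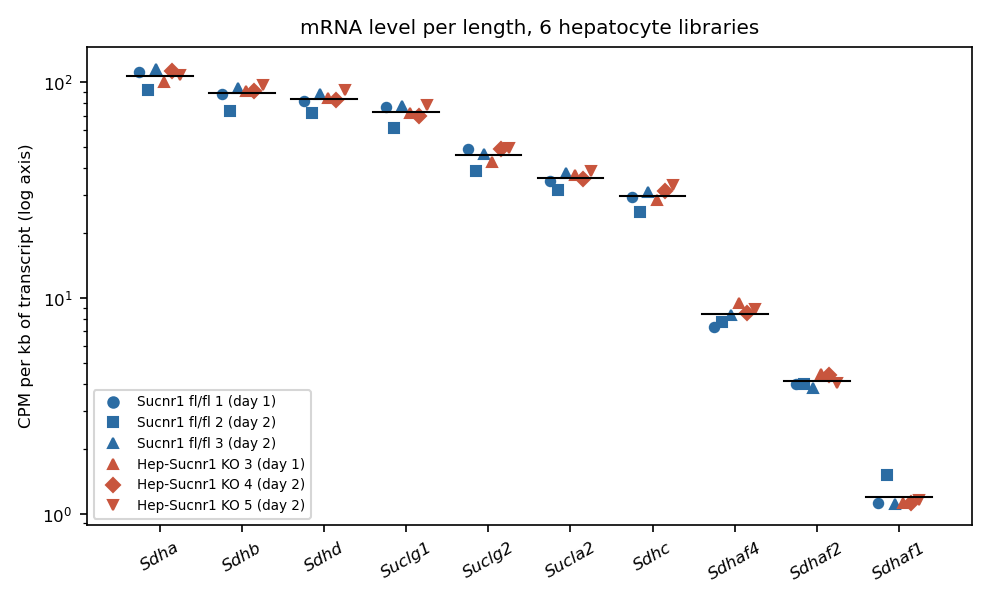
CPM per kb of the longest transcript (log axis) for the 10 genes in each of the 6 libraries, ordered by the mean (black line), with blue for Sucnr1 fl/fl and red for Hep-Sucnr1 KO. The levels run from 107 CPM per kb for Sdha to 1.19 for Sdhaf1, and the 3 assembly factors lie below all 7 enzyme subunits.

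The subunits of succinate dehydrogenase were compared between the genotypes to ask whether the enzyme that removes the ligand of the receptor differed. Of the Hep-*Sucnr1* KO libraries, replicate 3 still had 2.66 CPM of *Sucnr1*, beside 3.396 CPM in *Sucnr1* fl/fl replicate 3. No subunit passed the test, and the means of both genotypes lay close together. *Sdha* measured 325, 268 and 336 CPM in replicates 1, 2 and 3 of *Sucnr1* fl/fl and 292, 328 and 315 CPM in Hep-*Sucnr1* KO replicates 3, 4 and 5. The highest and the lowest of the 6 values were both in *Sucnr1* fl/fl, so the genotypes overlapped fully. The means were 309 ± 36.6 and 312 ± 17.9 CPM (SD, n = 3 each), with a log2 fold change of 0.01 and a 95% confidence interval from −0.32 to 0.34.

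*Sdhb* measured 101, 83.9 and 107 CPM in *Sucnr1* fl/fl and 104, 104 and 111 CPM in Hep-*Sucnr1* KO libraries. Here *Sucnr1* fl/fl replicate 2 stood below the others and the remaining 5 values were close. The means were 97.4 ± 12.1 and 106.2 ± 3.80 CPM (SD, n = 3 each), and the log2 fold change was 0.13 (interval −0.18 to 0.43). *Sdhc* measured 93.1, 79.4 and 98.5 CPM in *Sucnr1* fl/fl and 90.4, 99.2 and 106 CPM in Hep-*Sucnr1* KO libraries, with a log2 fold change of 0.12 (interval −0.18 to 0.43). *Sdhd*, the other anchor subunit, measured 101, 88.9 and 109 CPM in *Sucnr1* fl/fl and 104, 101.9 and 114 CPM in Hep-*Sucnr1* KO libraries, with a log2 fold change of 0.10 (interval −0.19 to 0.39). For both anchor subunits the lowest value was again in *Sucnr1* fl/fl replicate 2, the highest was in Hep-*Sucnr1* KO replicate 5, and the genotypes overlapped.

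The ligase subunits showed the same overlap. *Suclg1*, the α subunit common to both forms of the enzyme, measured 117, 93.7 and 118 CPM in *Sucnr1* fl/fl and 109, 106 and 119 CPM in Hep-*Sucnr1* KO libraries. Its means were 109 ± 13.7 and 111 ± 6.82 CPM (SD, n = 3 each), and its log2 fold change was 0.03 (interval −0.29 to 0.34). *Suclg2*, the GTP-forming β subunit, measured 165, 130.1 and 157 CPM in *Sucnr1* fl/fl and 145, 165 and 166 CPM in Hep-*Sucnr1* KO libraries. The means were 151 ± 18.4 and 159 ± 12.4 CPM (SD, n = 3 each), and the log2 fold change was 0.07 (interval −0.26 to 0.41). Between the libraries of day 1 the difference of log2 CPM for *Suclg2* was −0.19, and between the means of day 2 it was 0.22, so the direction was opposite on both days. *Sucla2*, the ATP-forming β subunit, measured 77.9, 70.4 and 85.1 CPM in *Sucnr1* fl/fl and 82.8, 79.4 and 86.4 CPM in Hep-*Sucnr1* KO libraries, with a log2 fold change of 0.09 (interval −0.19 to 0.37). The lowest limit of the 7 confidence intervals was a change of −20.2%, for *Sdha*, and the highest was 34.9%, for *Sdhb*. For *Sdhb* the lower limit was −11.7%.

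The assembly factors had fewer counts. *Sdhaf1* measured 2.78, 3.76 and 2.77 CPM in *Sucnr1* fl/fl and 2.79, 2.78 and 2.88 CPM in Hep-*Sucnr1* KO libraries, and *Sucnr1* fl/fl replicate 2 was thus the only library that stood apart. Its log2 fold change was −0.14 (standard error 0.21), the only one of the 10 below 0. *Sdhaf2* measured 15.7, 15.6 and 15.0 CPM in *Sucnr1* fl/fl and 17.5, 17.2 and 15.9 CPM in Hep-*Sucnr1* KO libraries, with a log2 fold change of 0.13 (standard error 0.11). *Sdhaf4* measured 5.02, 5.26 and 5.70 CPM in *Sucnr1* fl/fl and 6.49, 5.82 and 6.07 CPM in Hep-*Sucnr1* KO libraries, with a log2 fold change of 0.20 (standard error 0.15), the largest of the 10. For these last 2 genes every Hep-*Sucnr1* KO library was above every *Sucnr1* fl/fl library. Such a lack of overlap, in either direction, was seen in 10.6% of all genes tested, and with Hep-*Sucnr1* KO above in 6.54%. The gap for *Sdhaf4* was between 5.70 and 5.82 CPM, at 173 to 205 counts per library, and the Poisson intervals of these counts overlapped. The genes without overlap were *Sdhb* and *Sdhaf4* when library size alone scaled the counts and *Sdhaf4* alone with DESeq2's size factors.

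With Benjamini-Hochberg adjustment of edgeR's quasi-likelihood test over the 15105 genes, 0 of the 10 genes had an adjusted p below 0.05, and each had an adjusted p of 0.998. The share of all genes past that threshold was 0%. At an unadjusted p below 0.05 the count was 0 of 10 as well, beside 3.73% of all genes, and the lowest unadjusted p of the 10, by edgeR's test across all genes, was 0.233, for *Sdhaf4*. DESeq2's Wald test called 7 genes, 0.0463% of those tested, with none of the 10 among them. Among the 7 was the deleted gene *Sucnr1* (log2 fold change −2.31, adjusted p 0.0328 in DESeq2's Wald test), which edgeR's test did not call. The log2 fold change was above 0 for 9 of the 10 genes, beside 50.5% of all genes, and the median was 0.10 against 0.00 for all genes. The 9 are not 9 independent observations, since the 7 enzyme subunits shared their low library. With *Sucnr1* fl/fl replicate 2 left out, the median was 0.02 over the dehydrogenase subunits, with 3 of 4 above 0, and −0.04 over the ligase subunits, with 1 of 3 above 0, while it was 0.15 over the assembly factors.

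**Figure D2:**
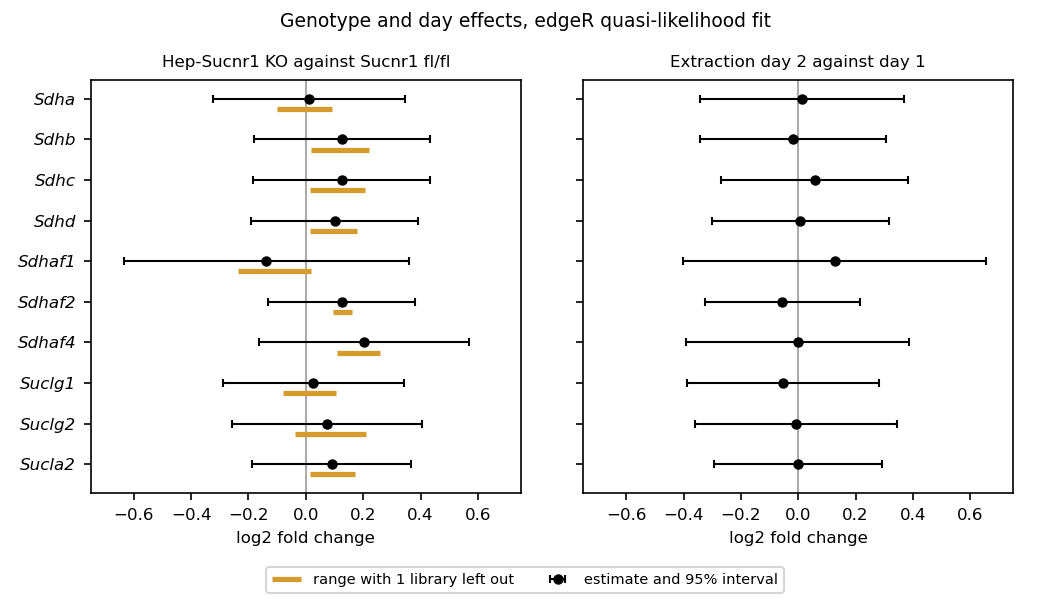
Log2 fold changes of the 10 genes with 95% confidence intervals, for genotype (left, with the range when 1 library was left out as a bar) and for extraction day (right). Every interval includes 0, and the genotype estimates run from −0.14 for Sdhaf1 to 0.20 for Sdhaf4.

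None of the 10 genes passed a test for extraction day. With edgeR, 0 genes had an adjusted p below 0.05 for day 2 against day 1, and 1132 genes, 7.49%, had an unadjusted p below 0.05. DESeq2 called 225 genes (1.49%). None of the 10 genes was among the genes of either count, and their log2 fold changes lay between −0.06 for *Sdhaf2* and 0.13 for *Sdhaf1*. For the interaction of genotype and day, 0 genes passed with edgeR and 557 genes, 3.69%, had an unadjusted p below 0.05, again with none of the 10 genes. The largest interaction was that of *Suclg2*, at 0.40 with a standard error of 0.28.

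Libraries also differed within a genotype. All 7 enzyme subunits had their lowest value in *Sucnr1* fl/fl replicate 2, where each stood at 79.6 to 85.6% of the mean of the other 5 libraries. Averaged over the 7 subunits and given as a percent of the mean of the 6 libraries, replicates 1, 2 and 3 of *Sucnr1* fl/fl were at 101, 85.1 and 105%, and Hep-*Sucnr1* KO replicates 3, 4 and 5 at 98.4, 101.9 and 108%. Of all genes tested, 19.4% were lowest in *Sucnr1* fl/fl replicate 2, and of the 2157 genes with a mean between 50 and 500 CPM it was 35.0%. The nuclear subunits of complexes I, III, IV and V did likewise, with 60 of 70 lowest in that library.

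The size of this deviation depended on the scaling. *Sucnr1* fl/fl replicate 2 had the highest TMM factor of the 6 libraries, 1.09, and with library size alone the 7 subunits stood at 88.3 to 94.9% of the mean of the other libraries. All 7 were still lowest there, beside 9.16% of all genes, but the count over the other nuclear respiratory subunits was then 25 of 70. With DESeq2's size factors all 7 were lowest there too, beside 18.6% of all genes and 62 of the 70 subunits. The same library was the highest of the 6 for *Sdhaf1* with TMM. For *Sdhaf2* and *Sdhaf4* it lay at 96.2 and 90.4% of the mean of the others with TMM, and at 107 and 100.2% with library size alone.

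**Figure D3:**
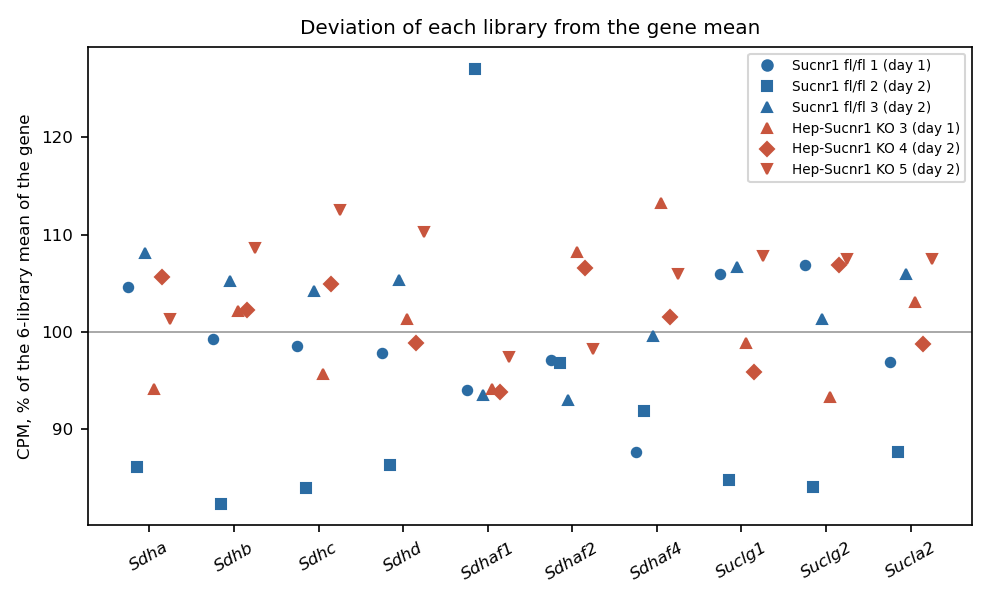
CPM of each library as a percent of the mean of the 6 libraries for that gene, with blue for Sucnr1 fl/fl, red for Hep-Sucnr1 KO and a symbol for each replicate. Sucnr1 fl/fl replicate 2 (blue squares) is the lowest library for all 7 enzyme subunits and the highest for Sdhaf1.

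The spread of the enzyme subunits fell when their common mean in each library was subtracted. The SD of log2 CPM over the 6 libraries lay between 0.11 and 0.14 for the 7 enzyme subunits, with a median of 0.13, beside a median of 0.25 over all genes and 0.16 over genes of 50 to 500 CPM. After subtraction of the mean of the 7 subunits in each library it fell to between 0.04 and 0.06, with a median of 0.05. The same step took the medians from 0.13 to 0.06 for complex I, from 0.12 to 0.06 for complex III, from 0.13 to 0.05 for complex IV and from 0.13 to 0.05 for complex V. The decrease was thus not particular to the enzymes of succinate. The points share their libraries and scaling, and the mean that was subtracted contains the gene itself. The coefficient of variation of the enzyme subunits was 7.27 to 9.75%, where counting alone gives 0.982 to 1.93%, so the spread between libraries and not depth set their precision. For *Sdhaf1* it was 13.3%, where counting alone gives 10.1%.

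A pair of ratios compares the mRNA of subunits within a library, and protein was not measured in these libraries. The ratio of *Suclg2* to *Sucla2* CPM, the GTP-forming against the ATP-forming β subunit, was 2.12, 1.85 and 1.84 in *Sucnr1* fl/fl and 1.74, 2.08 and 1.93 in Hep-*Sucnr1* KO libraries. The GTP-forming subunit thus had more counts in every library, and the highest and lowest ratios were the libraries of day 1. The mean was 1.94 ± 0.161 without and 1.92 ± 0.170 with deletion of *Sucnr1* (SD of n = 3 libraries, p = 0.9 in an exact permutation test, two-sided). Per kb of the longest transcript the ratio was 1.28 ± 0.0983 over the 6 libraries, and with exon unions 1.66. The difference of the log2 ratio was −0.28 on day 1, where each genotype has a single library, and 0.12 on day 2, so it was opposite on both days.

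The ratio of *Sdhb* to *Sdha* CPM was 0.311, 0.313 and 0.319 in *Sucnr1* fl/fl and 0.356, 0.318 and 0.352 in Hep-*Sucnr1* KO libraries. Hep-*Sucnr1* KO replicates 3 and 5 were above the range of *Sucnr1* fl/fl, and replicate 4 was inside it. The means were 0.315 ± 0.00421 and 0.342 ± 0.0210 (SD of n = 3 libraries, p = 0.2 in an exact permutation test, two-sided), and a design of 3 against 3 cannot go below 0.1. Per kb of the longest transcript the ratio was 0.833 ± 0.0510 over all libraries (SD), and with exon unions 0.605. The difference of the log2 ratio was 0.12, with 0.19 on day 1 and 0.08 on day 2. The difference was therefore in the same direction on both days, and with 3 libraries per genotype the test could not have gone below 0.05.

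**Figure D4:**
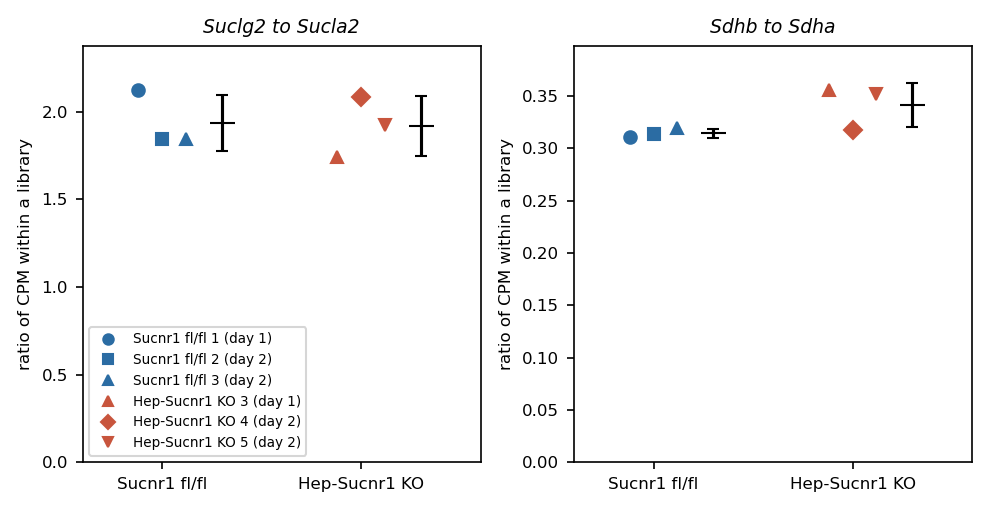
Ratio of CPM within each library for Suclg2 to Sucla2 (left) and Sdhb to Sdha (right), with blue for Sucnr1 fl/fl, red for Hep-Sucnr1 KO, and black bars for the mean and SD of 3 libraries. The first ratio is near 1.93 in both genotypes, and for the second Hep-Sucnr1 KO replicates 3 and 5 lie above the 3 Sucnr1 fl/fl libraries.

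The reactions around succinate were described with 7 lists, which together held 60 tested genes. Of these, 38 had a log2 fold change above 0 and 22 below, and 0 had an unadjusted p below 0.05 in edgeR's test. The 2-oxoglutarate dehydrogenase complex, which makes succinyl-CoA, had 3 of 4 genes above 0, from −0.09 for *Ogdh* to 0.11 for *Dlst*, and a median of 0.07. The other TCA cycle enzymes had 7 of 8 above 0 with a median of 0.05, and *Idh2* was the highest at 0.22. The route from propionate to succinyl-CoA also had 7 of 8 above 0, with a median of 0.04, and *Mmab*, which makes the cobalamin cofactor of that route, was the highest at 0.55 (standard error 0.24), with *Pccb* the lowest at −0.04. Of 7 genes of other routes to or from succinyl-CoA and succinate, 4 were above 0 (median 0.07). *Oxct1*, which uses succinyl-CoA to activate ketone bodies, was the highest at 0.34 (standard error 0.38), and *Aldh5a1*, which makes succinate from its semialdehyde, the lowest at −0.05.

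Of 13 genes for cofactor supply and regulation of succinate dehydrogenase, 8 were above 0, with a median of 0.06 and *Slc25a32* the lowest at −0.15. Ubiquinone, the electron acceptor of complex II, is made by enzymes of which 7 of 13 were above 0, with a median of 0.04 and a range from −0.25 for *Coq8b* to 0.33 for *Coq4*. Other dehydrogenases that reduce ubiquinone had 2 of 7 above 0 and a median of −0.09, and they ran from −0.30 for *Dhodh* of pyrimidine synthesis to 0.61 for *Prodh* of proline breakdown. The medians of these 7 lists kept their signs with library size alone, but the count for the propionate route was then 4 of 8. Without *Sucnr1* fl/fl replicate 2 the median was −0.0026 for the propionate route (4 of 8 above 0), −0.12 for the other routes of succinyl-CoA and succinate (1 of 7) and −0.0017 for ubiquinone synthesis, and 4 of 8 other TCA cycle enzymes were above 0. The median of the other dehydrogenases was 0.015 without *Sucnr1* fl/fl replicate 1, 0.012 without its replicate 3 and 0.0089 without Hep-*Sucnr1* KO replicate 3. The fits without *Sucnr1* fl/fl replicate 1 and without Hep-*Sucnr1* KO replicate 3 are not separate results. Both compared the genotypes through the day 2 libraries only.

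Among the respiratory complexes that complex II works beside, all 70 tested nuclear subunits had a log2 fold change above 0 with TMM, and all but 1 subunit of complex III with library size alone. The medians were 0.16 over 36 subunits of complex I, 0.09 over 9 of complex III, 0.11 over 10 of complex IV and 0.12 over 15 of complex V, near the 0.11 over the succinate dehydrogenase subunits. An unadjusted p below 0.05 in edgeR's test was reached by 1 of the 70, *Ndufa2*, beside 3.73% of all genes. With library size alone *Ndufa2* was not below 0.05. With TMM the genotypes did not overlap for 23 of the 70, beside 10.6% of all genes, and other scalings were not used for that count. Without *Sucnr1* fl/fl replicate 2 these medians were 0.09, 0.03, 0.04 and 0.05, and 32 of 36, 6 of 9, 9 of 10 and 12 of 15 subunits were above 0. Of the 13 genes encoded in mitochondrial DNA, *mt-Nd6* was the lowest at −0.62. In edgeR's test its unadjusted p was 0.0108, and no other gene of the 13 was below 0.05, beside 3.73% of all genes. With 1 library left out, the p of *mt-Nd6* was not below 0.05 in every fit. The 13 genes had a median of −0.06, with 1 above 0 (0 with library size alone). The sign of that median turned with the library left out: it was −0.21 without *Sucnr1* fl/fl replicate 2, 0.03 without *Sucnr1* fl/fl replicate 1 (8 of 13 above 0) and 0.03 without Hep-*Sucnr1* KO replicate 3 (7 of 13).

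Of all 15095 other genes, those whose pattern over the 6 libraries was among the most like that of *Sdha* included *Gm13910* and *Sirt2*, with root mean square differences of 0.0237 and 0.0248 in log2 CPM after centring each gene. For *Suclg2* they were *Canx*, *Echs1* and *Trap1*, with differences of 0.0210, 0.0247 and 0.0280. The nearest of the 10 genes to *Sdha* was *Suclg2*, with 0.0556. The measure rests on 6 libraries and was the closest of many.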

How the data were processed

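Poly(A) RNA of cultured hepatocytes, from 3 mice per genotype, was sequenced as stranded paired-end libraries. Per the labels and the study's methods, the authors trimmed reads with Trim Galore 0.6.7, aligned them to GRCm38 with STAR 2.7.10a and counted read pairs per gene by strand with featureCounts on Ensembl annotation 102, and deposited these raw counts for 25184 genes. The treatment of reads that match several genes was not given in the sources used here. Symbols for 25096 of the identifiers came from GENCODE M21 (GRCm38), which also gave the coordinates and lengths.

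CPM were computed with TMM factors. Genes with a mean DESeq2-normalized count above 5 were tested with edgeR 4.0.16 (R 4.3.3; quasi-likelihood test with Benjamini-Hochberg adjustment, threshold 0.05) with extraction day and genotype as terms and all 6 libraries in the fit. Log2 CPM used a prior count of 2, and ratios used CPM without one. For single ratios the exact permutation test, two-sided, was used. DESeq2 1.42.0, other scalings, filters and covariates, and each library left out were alternatives. The scripts were tested on simulated data. Tables were made with pandas 2.3.3 and SciPy 1.17.1. Intervals on counts are exact Poisson intervals at 95% and cover counting error only.

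Replicates are separate mice, and replicate numbers do not pair genotypes. The 10 genes were named by their function, and in each list of surrounding genes the highest and the lowest gene were named, except where a gene is not reported here. The genes and lists were chosen with earlier results of these data known. Shared sequence was counted as words of 50 bases, listed from a share of 1%.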

Additional observations from a re-analysis of the deposited data

Results flagged for a closer look

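Within the 4 libraries of extraction day 2, *Sdhaf1* stood out in 1 library. It measured 3.76 CPM in *Sucnr1* fl/fl replicate 2 and between 2.77 and 2.88 CPM in the other 3, and the gap to its nearest neighbour was 0.884 of the whole range, above Dixon's 95% critical value for 4 samples. Chance alone gives such a gap in about 1 of 20 groups. The library had 125 counts of *Sdhaf1* (Poisson interval 104 to 149), where the 5 other libraries had 84 to 107. Its interval overlaps those of 4 of them. Its lower limit of 104.049 lies narrowly above the upper limit of *Sucnr1* fl/fl replicate 3, 103.998. These intervals are of raw counts, not scaled for library depth. The same library is the lowest of the 6 for the 7 enzyme subunits, and its TMM factor of 1.09 is the highest. A TMM factor above 1 lowers the CPM of a library, and this library had the fewest total counts, 30504248. The cause of its *Sdhaf1* value was not tested.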

How the results depend on the processing

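Of 150 genotype log2 fold changes of the 10 genes under the alternatives, 133 kept the sign of the reported value and 17 had the opposite sign, and no alternative took any of them past the threshold (lowest adjusted p 0.949). Of 130 values for extraction day, 100 kept the sign and 30 did not (lowest adjusted p 0.907). In each of these the cause was not tested. Under the alternatives the values ran from −0.24 to 0.26 for genotype and from −0.24 to 0.20 for day. The genotype value of *Sdha* was −0.0107 with DESeq2, −0.0107 with DESeq2's size factors in edgeR, −0.0143 with library size alone, −0.00903 without a filter and −0.00141 with edgeR's own filter. With the series of library index names as a further term it was −0.12 for *Sdha*, −0.041 for *Sdhb*, −0.043 for *Sdhd*, 0.092 for *Sdhaf1*, −0.12 for *Suclg1* and −0.059 for *Sucla2*, and 5 of 10 genes were then above 0, against 7 to 9 with 1 library left out. That series holds *Sucnr1* fl/fl replicates 1 and 2 against the other 4 libraries and is partly confounded with genotype. In the same order of settings, ending with the index series, the day value was −0.00387, −0.00385, −0.00523, −0.00742, −0.0144 and −0.0445 for *Sdha* and −0.00870, −0.00867, −0.0115, −0.0121, −0.0194 and −0.0525 for *Sdhd*.

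With 1 library left out the genotype value ranged from −0.10 to 0.090 for *Sdha*, −0.24 to 0.018 for *Sdhaf1*, −0.081 to 0.11 for *Suclg1* and −0.038 to 0.21 for *Suclg2*. The day value ranged from −0.15 to 0.14 for *Sdha*, −0.12 to 0.045 for *Sdhb*, −0.11 to 0.18 for *Sdhc*, −0.069 to 0.044 for *Sdhd*, −0.030 to 0.20 for *Sdhaf1*, −0.13 to 0.089 for *Sdhaf4*, −0.19 to 0.041 for *Suclg1*, −0.24 to 0.20 for *Suclg2* and −0.062 to 0.026 for *Sucla2*. A fit without a library of day 1 leaves 1 library on that day, which the day term takes up. Its genotype value then comes from the day 2 libraries. The number of genes called for genotype was 0, and 7 with DESeq2. For day it was 0, and 225 with DESeq2, 122 without a filter and 29 without *Sucnr1* fl/fl replicate 2 (0 to 29 with 1 library left out). The difference of the log2 ratio of *Suclg2* to *Sucla2* was 0.12 in the day 2 libraries alone and ranged from −0.077 to 0.052 with 1 library left out. No paired analysis was possible because the genotypes share only 1 replicate number, which does not mark a pair. The alternatives with exon unions, with list medians under other fits and with other scalings for overlap and lowest library were chosen after seeing the data. The 3 mice of each genotype limit the precision to the intervals given for each gene.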
